A study of Mus musculus with 29 samples.

Results

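Small intestinal tumors of mice that lack RNase H2 and p53 in the gut epithelium were compared with non-tumor intestinal tissue of floxed mice. The 8 libraries were taken from the 29 of the series by their labelled tissue and genotype: 4 tumors of H2B/p53dIEC mice 1319, 1322, 1323 and 1349, and 4 samples of H2B/p53flox/flox mice 1315, 1316, 1320 and 1321, called controls here. All mice were C57BL/6, and no age is given for the tissue set. H2B is read as Rnaseh2b from the study's subject, ribonucleotide excision repair, and dIEC as a deletion in intestinal epithelial cells. The driver of the deletion is not given in the sources used here. Control tissue carries the floxed alleles without the deletion and is labelled as normal tissue next to tumor, as is the non-tumor tissue of the 4 tumor mice, called adjacent tissue, which is set beside the tumors where it adds a value. The position of each sample along the small intestine was not given either. No mouse gave both a tumor and a control, each library is 1 animal, and the comparison is between animals. Expression was measured by poly(A)-selected, strand-specific RNA sequencing.

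RNase H2 is a 3-part enzyme that cuts RNA out of DNA. Its RNASEH2B subunit is needed for the whole complex, and without it ribonucleotides stay in the genome and nick DNA when they are removed by topoisomerase 1. The p53 protein halts the cell cycle or starts cell death after such damage. The intestinal epithelium is renewed from Lgr5-positive stem cells at the crypt base under Wnt signals, and Wnt signalling that no longer needs a ligand is the usual first step of intestinal tumors. Wnt targets include the pathway's own inhibitors, so that both kinds of gene mark an active pathway.

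Total gene counts were 25503492, 21884287, 30290711 and 25900236 in tumors 1319, 1322, 1323 and 1349, against 41504298, 26853485, 401365 and 34687069 in controls 1315, 1316, 1320 and 1321. Control 1320 was thus sequenced far less deeply than the rest, and 1 count in it is worth 2.68 CPM (counts scaled to library size with TMM factors and expressed on the usual CPM scale), against 0.0256 to 0.0525 CPM in the other tissue libraries. A value of 0 in it says little about a gene of low level. Mitochondrial genes took 0.881% to 1.85% of counts in tumors, against 2.34% to 2.92% in controls, and the 20 most abundant genes took 6.43% to 7.57% in tumors, against 10.35% to 12.01% in controls. Mouse 1349 was male by Xist and Y-linked counts, and the other 3 tumors and the 4 controls were female. Ranked expression across genes was, among tumor pairs, most alike for 1319 and 1349 (Spearman's rho 0.980), while tumor 1322 had a rho of 0.937 to 0.942 with the other tumors and 0.760 to 0.789 with controls.

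Both deleted genes were lower in tumors. Rnaseh2b, at chr14:62292589-62372992 on the + strand of GRCm38, stood at 3.71, 2.53, 6.2 and 5.13 CPM in tumors, against 14.1, 13.4, 24.1 and 12.8 CPM in controls, with libraries given here and below in the order 1319, 1322, 1323, 1349 for tumors and 1315, 1316, 1320, 1321 for controls. The groups did not overlap (log2 fold change -1.77 ± 0.34, adjusted p = 0.00098, adjusted over all genes by Benjamini-Hochberg, from the quasi-likelihood test of edgeR, the source of each adjusted p below). After a log2 fold change ± gives the SE, and after a mean CPM it gives the SD (n = 4 in each group). Trp53, which encodes p53, at chr11:69580359-69591873 on the + strand, stood at 15.3, 12.6, 29.9 and 21.4 CPM in tumors, against 49.6, 39.1, 45.5 and 45.1 CPM in controls (log2 fold change -1.18 ± 0.28, adjusted p = 0.00342), again with no overlap. Neither gene reached 0 in a tumor. The other 2 subunits of the enzyme were higher: Rnaseh2a, the catalytic subunit, at 55.2 ± 14.9 CPM in tumors and 17.3 ± 2.81 CPM in controls (log2 fold change 1.61 ± 0.21, adjusted p = 5.75e-05). Rnaseh2c stood at 33.2 ± 13.2 CPM in tumors and 12.4 ± 0.956 CPM in controls (log2 fold change 1.44 ± 0.27, adjusted p = 0.000805). Topoisomerase 1, encoded by Top1, was lower at 63.9 ± 9.87 CPM in tumors and 133 ± 22.6 CPM in controls (log2 fold change -1.06 ± 0.24, adjusted p = 0.00261).

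The tumors differed from control tissue over a large part of the genome. Of 17666 genes tested, 5044 (28.6%) were higher and 4606 (26.1%) were lower at an adjusted p under 0.05, 54.6% in all. The change was at least 2-fold for 3702 of the higher and 3280 of the lower genes, and the median over all genes was 0.07 on the log2 scale. With DESeq2 size factors or upper-quartile factors that median moved to 0.15, and the calls became 5500 higher and 4264 lower or 5485 higher and 4285 lower. Counts for gene groups below are read against these shares, because more than 54% of all genes were called. Every tumor was above every control in 4850 of the 17666 genes and below every control in 3831. Of the 9650 genes called, 7960 had groups that did not overlap, so a lack of overlap in a named gene was common. Without control 1320 the calls were 4962 higher and 4587 lower. In bulk tissue, fewer cells of a type and less RNA per cell cannot be told apart. Lists overlap in members.

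**Figure D1:**
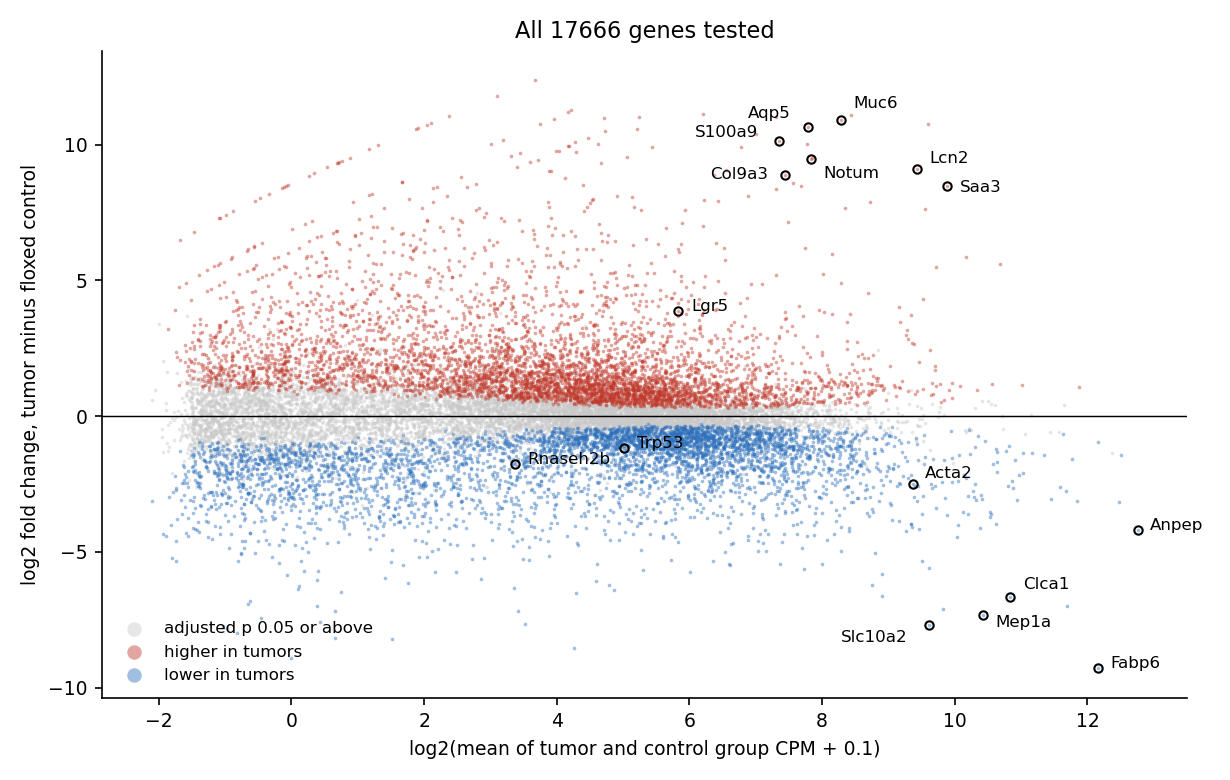
Each point is 1 of the 17666 genes tested, with the log2 of the mean of the tumor and control group CPM plus 0.1 on the horizontal axis and the log2 fold change, tumor minus control, on the vertical axis; red genes were higher and blue genes lower in tumors at an adjusted p under 0.05, and grey genes did not pass. Muc6, Aqp5, Notum and Lcn2 stand far above 0, and Fabp6, Slc10a2 and Mep1a far below it.

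Among protein-coding genes whose mean log2 CPM reached 3, and whose groups did not overlap, the 12 largest increases were those of Wfdc18, Muc6, Aqp5, Gkn3, Pnliprp1, Notum, Lcn2, Wif1, Col9a3, Spp1, Saa3 and Ltf, from 10.998 to 8.47 on the log2 scale. Wfdc18, a small protease inhibitor of the whey acidic protein family, stood at 343, 604, 70.3 and 239.9 CPM in tumors, against 0.179, 0.0429, 2.68 and 0.156 CPM in controls. It passed the low-count filter only because of the tumors, as did Aqp5 and Gkn3, so that their calls are a description. Lcn2, encoding the iron-scavenging lipocalin 2 of inflamed epithelium and neutrophils, stood at 398, 2475, 1999 and 629 CPM in tumors, against 3.33, 2.23, 2.68 and 1.97 CPM in controls (log2 fold change 9.09 ± 0.99, adjusted p = 2.25e-05), and adjacent tissue of the tumor mice lay between at a mean of 59.4 CPM. Saa3, an acute-phase apolipoprotein, stood at 854, 1013, 5050 and 641 CPM in tumors, against 1.76, 11.03, 5.35 and 3.095 CPM in controls, with tumor 1323 far above the other tumors. Its log2 fold change of 8.49 became 7.32 without tumor 1323 and 9.50 without control 1316. Spp1, which encodes the secreted matrix protein osteopontin, stood at 376 ± 251 CPM in tumors and 0.763 ± 0.595 CPM in controls, and Col9a3, a chain of the cartilage collagen IX, at 345 ± 306 CPM in tumors and 1.85 ± 2.34 CPM in controls. Pnliprp1, a lipase relative best known from the pancreas, was carried most by tumor 1322 (366, 1312, 14.9 and 134.6 CPM in tumors, against 1.05, 0.301, 2.68 and 0.375 CPM in controls), and its log2 fold change of 9.52 became 8.10 without it and 10.24 without control 1315.

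At the other end, the 12 largest decreases were those of Fabp6, Slc10a2, Mep1a, Tmigd1, Naaladl1, Clca1, Cubn, Slc13a1, Xpnpep2, Tppp, Ceacam20 and Slc34a2, from -9.29 to -5.58 on the log2 scale. Most are known from absorptive cells. Fabp6, the bile acid carrier of ileal enterocytes, at chr11:43596049-43601540 on the - strand, stood at 4.19, 3.402, 38.5 and 12.1 CPM in tumors, against 6598, 10790, 12670 and 6381 CPM in controls (log2 fold change -9.29 ± 1.60, adjusted p = 0.000465). Slc10a2, the transporter that takes up bile acids at the ileal brush border, stood at 3.58, 2.75, 11.8 and 11.7 CPM in tumors, against 1840, 1329, 1285 and 1750 CPM in controls (log2 fold change -7.70 ± 1.16, adjusted p = 0.000191). Mep1a, the alpha subunit of the brush border protease meprin, stood at 17.1 ± 13.2 CPM in tumors and 2737 ± 293 CPM in controls (log2 fold change -7.32 ± 0.87, adjusted p = 4e-05). Naaladl1, an ileal peptidase, stood at 52.2 ± 51.2 CPM in tumors and 6574 ± 537 CPM in controls (log2 fold change -6.98 ± 0.90, adjusted p = 6.52e-05). No tumor reached the lowest control in any of the 12, which follows from choosing genes whose groups did not overlap. The fold change grew more negative without tumor 1323 for Fabp6 (-10.43), without tumor 1349 for Naaladl1 (-7.88), Ceacam20 (-6.35) and Slc34a2 (-6.35), and without tumor 1319 for Slc13a1 (-7.17).

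Targets and components of the Wnt pathway were higher in tumors: 22 of 24 tested members rose and 0 fell, against 28.6% and 26.1% of all genes, with a median log2 fold change of 2.90. Lgr5, the receptor for R-spondins that marks crypt stem cells, at chr10:115450311-115587780 on the - strand, stood at 100.3, 148, 69.1 and 107 CPM in tumors, against 8.01, 5.15, 10.7 and 7.596 CPM in controls (log2 fold change 3.89 ± 0.36, adjusted p = 7.49e-06). Every tumor was above every control by several fold. Cd44, a hyaluronan receptor, stood at 266, 252, 325.4 and 303 CPM in tumors, against 35.6, 39.2, 50.9 and 35.6 CPM in controls (log2 fold change 2.88 ± 0.27, adjusted p = 9.55e-06), again without overlap. The transcription factor gene Prox1 stood at 104.8 ± 50.2 CPM in tumors and 4.13 ± 1.18 CPM in controls (log2 fold change 4.53 ± 0.43, adjusted p = 1.02e-05).

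The list also holds inhibitors of the pathway. Notum, a secreted enzyme that strips Wnt ligands of their lipid, at chr11:120653788-120661175 on the - strand, stood at 294, 1121, 216 and 195.3 CPM in tumors, against 0.614, 0.773, 0 and 0.563 CPM in controls (log2 fold change 9.47 ± 0.74, adjusted p = 4.28e-06). Wif1, which binds Wnt ligands outside the cell, stood at 145.3, 378, 47.9 and 171 CPM in tumors, against 0.358, 0.386, 5.35 and 0.188 CPM in controls (log2 fold change 9.05 ± 0.86, adjusted p = 1.02e-05). Nkd1, which acts on Dishevelled inside the cell, stood at 219, 778, 266 and 257 CPM in tumors, against 19.2, 28.6, 13.4 and 24.4 CPM in controls (log2 fold change 4.07 ± 0.41, adjusted p = 1.43e-05). Tumor 1322 was the highest in all 3 genes. Without it their log2 fold changes were 8.52 for Notum, 8.45 for Wif1 and 3.44 for Nkd1. The 2 members that did not pass were Axin2, a negative regulator and common reporter of the pathway, at 101, 239, 126 and 82.9 CPM in tumors, against 61.1, 50.1, 61.5 and 136 CPM in controls (log2 fold change 0.81 ± 0.48, adjusted p = 0.169), where the groups overlapped, and Ccnd2 (log2 fold change 0.12 ± 0.27, adjusted p = 0.735). Rnf43 and Znrf3, which remove Wnt receptors from the cell surface, rose by 2.93 and 2.47 on the log2 scale. Myc, a growth regulator and Wnt target, stood at 63.4 ± 18.04 CPM in tumors and 14.3 ± 8.36 CPM in controls (log2 fold change 2.03 ± 0.40, adjusted p = 0.00115).

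The Wnt list and the gastric list described below were also searched in promoters. RefSeq windows on GRCm38.p6, from 250 bases before to 50 after a transcript start, were available for 14 genes of the Wnt list, and CTTTGAT, the core letters bound by TCF and LEF factors, stood on either strand in 2 of them, Sp5 and Tnfrsf19, against 1225 of 32851 windows of all genes (3.73%). It also stood in 1 of 8 distal genes (Cubn), in 1 of 11 gastric genes (Cldn18) and in 0 of 17 brush border genes. Here and below a gene is counted if any of its windows holds the motif. Counts of genes and shares of windows are thus unlike measures, and no enrichment was tested. The windows of Sp5 and Tnfrsf19 are shown with the motif in capitals, as the Wnt members of this comparison whose start sites hold it: Sp5 at chr2:70474673-70474972 (+ strand, motif starting at position -104 from the start) and Tnfrsf19 at chr14:61037938-61038237 (- strand, motif on the opposite strand, its first printed base at -202, in 1 of its 2 windows).
Sp5: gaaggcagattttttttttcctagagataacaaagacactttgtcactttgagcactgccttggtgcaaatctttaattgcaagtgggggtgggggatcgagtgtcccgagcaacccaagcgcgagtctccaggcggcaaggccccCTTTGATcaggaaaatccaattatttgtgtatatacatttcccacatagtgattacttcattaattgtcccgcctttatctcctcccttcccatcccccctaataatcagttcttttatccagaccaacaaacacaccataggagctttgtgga
Tnfrsf19: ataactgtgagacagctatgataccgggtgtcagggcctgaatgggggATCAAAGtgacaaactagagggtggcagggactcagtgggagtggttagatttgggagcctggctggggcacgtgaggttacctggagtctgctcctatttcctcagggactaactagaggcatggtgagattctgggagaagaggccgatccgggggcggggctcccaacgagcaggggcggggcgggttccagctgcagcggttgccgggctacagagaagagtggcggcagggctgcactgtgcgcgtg
Sp5, a transcription factor gene of the Wnt response, stood at 52.5, 99.95, 40.1 and 58.4 CPM in tumors, against 2.61, 1.85, 0 and 2.94 CPM in controls (log2 fold change 4.71 ± 0.68, adjusted p = 0.00015). Tnfrsf19, a receptor gene known as Troy and found on crypt stem cells, stood at 64.02, 195, 32.8 and 80.9 CPM in tumors, against 10.2, 13.3, 13.4 and 7.57 CPM in controls (log2 fold change 3.14 ± 0.50, adjusted p = 0.000287). In both the tumors and controls did not overlap. Other motifs, chosen after values were seen, were searched in the same way: 6 motifs in 6 lists. CAAAGTCCA, letters of a site bound by HNF4 factors, stood in 2 of 17 brush border genes, Alpi and Treh, and in 156 of all windows (0.475%). GATAAG, the core bound by GATA factors, stood in 4 of 11 genes of the gastric list, Gkn1, Gkn2, Gkn3 and Vsig1, and in 2445 of all windows (7.44%). Gkn3 at chr6:87388886-87389185 (- strand) holds it at 2 places on the opposite strand, and Alpi at chr1:87101557-87101856 (- strand) holds the HNF4 letters just before its start (position -19). They are shown as a gene near the top of the increases and a brush border gene for comparison with the Wnt promoters.
Gkn3: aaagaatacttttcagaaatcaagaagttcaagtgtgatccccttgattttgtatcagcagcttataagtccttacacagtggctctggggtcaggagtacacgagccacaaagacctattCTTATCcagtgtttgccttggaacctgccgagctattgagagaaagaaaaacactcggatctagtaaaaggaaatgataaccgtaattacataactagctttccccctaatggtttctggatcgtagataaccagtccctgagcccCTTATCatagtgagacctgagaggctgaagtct
Alpi: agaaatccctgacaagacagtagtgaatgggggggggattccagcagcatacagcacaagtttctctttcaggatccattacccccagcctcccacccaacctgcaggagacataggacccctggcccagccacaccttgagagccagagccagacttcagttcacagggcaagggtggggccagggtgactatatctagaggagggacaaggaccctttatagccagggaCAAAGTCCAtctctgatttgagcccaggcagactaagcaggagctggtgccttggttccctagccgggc
Alpi, the intestinal alkaline phosphatase of the brush border, stood at 363, 14, 36.98 and 289 CPM in tumors, against 548, 594, 899 and 486 CPM in controls and did not pass the test (log2 fold change -1.84 ± 0.77, adjusted p = 0.0607). The other motifs searched were CAAAGTC and TTGACTTTG, which overlap the HNF4 and TCF letters in part, and AGATAAG, which contains GATAAG; all windows held them in 4.44%, 0.271% and 3.04% of cases. A match describes letters in these windows only.

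Stem cell genes were higher as well, 13 of 18 tested members with 0 lower and a median of 2.53. Smoc2, a matricellular protein of Lgr5-positive cells, stood at 586, 549, 625.4 and 674 CPM in tumors, against 54.1, 60.8, 56.2 and 51.4 CPM in controls (log2 fold change 3.45 ± 0.15, adjusted p = 1.86e-07), and the 4 tumors lay close together. Prom1, a membrane glycoprotein of stem and progenitor cells, stood at 1204 ± 487 CPM in tumors and 90.3 ± 24.98 CPM in controls (log2 fold change 3.72 ± 0.39, adjusted p = 1.62e-05). Sox4, a transcription factor gene, stood at 101 ± 4.73 CPM in tumors and 16.2 ± 3.22 CPM in controls (log2 fold change 2.59 ± 0.19, adjusted p = 2.43e-06). Olfm4, a marker of small intestinal stem cells, did not pass, at 20.2, 3.62, 14.7 and 31.6 CPM in tumors, against 47.2, 21.1, 21.4 and 45.01 CPM in controls (log2 fold change -1.01 ± 0.72, adjusted p = 0.256), and the groups overlapped. Genes of fetal epithelium and of YAP signalling, which mark regenerating crypts, rose in 15 of 17 cases with 0 lower and a median of 3.36; 1 of them passed the low-count filter only because of the tumors. Il33, an alarmin, stood at 90.7 ± 20.6 CPM in tumors and 3.37 ± 0.878 CPM in controls (log2 fold change 4.66 ± 0.37, adjusted p = 3.85e-06). Anxa3, an annexin, stood at 85.95 ± 26.3 CPM in tumors and 14.02 ± 3.31 CPM in controls (log2 fold change 2.72 ± 0.30, adjusted p = 2.23e-05). Clu, the chaperone clusterin that marks revival stem cells, stood at 2264 ± 1031 CPM in tumors and 38.96 ± 7.26 CPM in controls (log2 fold change 5.88 ± 0.95, adjusted p = 0.000312).

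**Figure D2:**
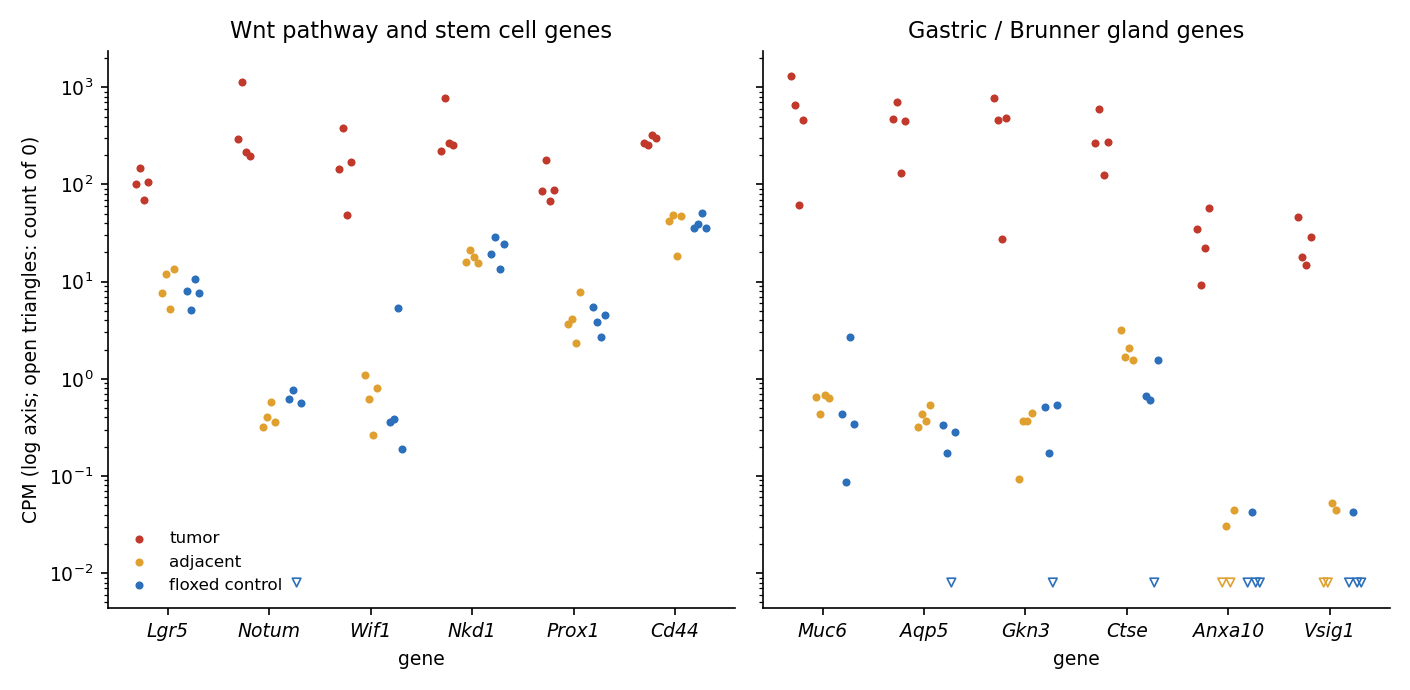
CPM of 6 Wnt and stem cell genes and 6 stomach and Brunner gland genes in each library on a log axis, with tumors, adjacent tissue and controls from left to right for each gene and open triangles for a count of 0. Every tumor lies above every adjacent and control library in all 12 genes, and tumor 1323 is the lowest tumor for Muc6, Aqp5 and Gkn3.

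Genes of the stomach and of Brunner glands, the mucous glands of the duodenal wall, were close to absent from control tissue and abundant in tumors. Muc6, the gland mucin of the stomach and Brunner glands, at chr7:141633456-141655319 on the - strand, stood at 1305, 656, 61.1 and 459.5 CPM in tumors, against 0.435, 0.0859, 2.68 and 0.344 CPM in controls (log2 fold change 10.89 ± 1.05, adjusted p = 1.11e-05). Aqp5, a water channel of gland cells, stood at 470.4, 712, 132 and 453 CPM in tumors, against 0.333, 0.172, 0 and 0.281 CPM in controls (log2 fold change 10.66 ± 0.61, adjusted p = 1.24e-06). Gkn3, a secreted gastrokine, stood at 783, 456, 27.4 and 482 CPM in tumors, against 0.511, 0.172, 0 and 0.531 CPM in controls (log2 fold change 10.02 ± 1.05, adjusted p = 1.82e-05). Tumor 1323 was the lowest of the tumors in all 3, by the widest margin in Gkn3. Ctse, the protease cathepsin E of gastric surface cells, stood at 314 ± 198 CPM in tumors and 0.707 ± 0.644 CPM in controls (log2 fold change 8.38 ± 0.63, adjusted p = 3.56e-06). Anxa10, an annexin of gastric surface cells, had 3843 counts over the 4 tumors and 1 over the 4 controls, a ratio of 3838 relative to total counts (95% interval 688.5 to 1.516e+05, exact, counting error only). Gkn1, a gastrokine, had 2354 counts over the tumors and 2 over the controls, a ratio of 1175 (325 to 9712). For Vsig1, an adhesion molecule of the stomach, the ratio was 3306 (592.9 to 1.306e+05). All 15 tested members were called higher, but 12 of them passed the low-count filter only because of the tumors and had to differ, so that this count is a description. Aqp5 and Gkn3 are among the 12, so their adjusted p is no independent support. Their summed level was 696 to 5036 CPM in tumors, 3.78 to 5.06 CPM in adjacent tissue and 2.10 to 3.38 CPM in controls. The log2 fold change of Muc6 was 10.23 without tumor 1319.

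Genes that are graded along the small intestine separated the groups too. All 10 genes of the distal list were lower (median -5.08), and 8 of 10 of the proximal list were higher with 1 lower (median 4.79). Of the proximal genes 2, Pdx1 and Onecut3, passed the low-count filter only because of the tumors, and their calls are a description. Pdx1, the transcription factor of duodenum and pancreas, had 436 counts over the 4 tumors and 3 over the 4 controls. Gata4, which sets jejunal identity, stood at 57.3 ± 21.3 CPM in tumors and 1.098 ± 0.884 CPM in controls (log2 fold change 5.33 ± 1.43, adjusted p = 0.00733). Lct, the brush border lactase, stood at 174, 3.94, 1.09 and 214 CPM in tumors, against 0.435, 0.816, 5.35 and 1 CPM in controls (log2 fold change 6.94 ± 2.56, adjusted p = 0.0365). Tumors 1319 and 1349 carried it, and the groups overlapped. Cubn, the receptor that takes up intrinsic factor with vitamin B12 in the ileum, stood at 12.2, 5.14, 6.42 and 15.1 CPM in tumors, against 1125, 800.2, 1028 and 849 CPM in controls (log2 fold change -6.61 ± 0.53, adjusted p = 4.62e-06). Amn, its partner amnionless, stood at 12.02 ± 8.22 CPM in tumors and 183 ± 11.4 CPM in controls (log2 fold change -3.93 ± 0.49, adjusted p = 5.1e-05). Osr2, a transcription factor gene of the distal list, stood at 22.6 ± 9.86 CPM in tumors and 158 ± 33.8 CPM in controls (log2 fold change -2.79 ± 0.38, adjusted p = 9.04e-05). Broad intestinal factors were lower as well, among them Cdx1 (42.1 ± 9.01 CPM in tumors and 223 ± 21.5 CPM in controls, log2 fold change -2.41 ± 0.18, adjusted p = 3.36e-06), Cdx2 (82.7 ± 19.96 CPM in tumors and 317 ± 51.6 CPM in controls, log2 fold change -1.94 ± 0.21, adjusted p = 1.93e-05) and Hnf4a, a driver of enterocyte genes (192 ± 78.2 CPM in tumors and 1158 ± 219 CPM in controls, log2 fold change -2.59 ± 0.30, adjusted p = 2.93e-05).

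These regional genes limit how the decreases can be read. Controls carried an ileal pattern, with a mean of the distal list of 1.26 to 3.49 log2 CPM in tumors, 5.67 to 8.46 in adjacent tissue and 8.15 to 8.62 in controls. The proximal list stood at 3.18 to 5.88 in tumors, 1.46 to 4.34 in adjacent tissue and 0.12 to 1.45 in controls. With no position in the labels, tumor state and place along the gut cannot be told apart for genes of either list. The same limit holds for any other gene graded along the gut, in the lists above and below, Brunner gland genes among them. Adjacent tissue of mouse 1323 departed from the other 3 adjacent libraries, with a distal mean of 5.67 and a proximal mean of 4.34. Lct stood at 714.7 CPM in it. In that library Fabp6 stood at 15.7 CPM and Slc10a2 at 11.8 CPM, while Muc6 stood at 0.682 CPM and Gkn3 at 0.367 CPM. Its gastric genes were thus at the level of the other non-tumor libraries, and the summed gastric list was 4.77 CPM in it. Each of the 12 largest decreases had its lowest adjacent value in this library. Tmigd1 stood at 81 CPM in it (1389 to 1905 CPM in the other adjacent libraries) and Slc13a1 at 7.19 CPM (272 to 468 CPM). The brush border list had a mean of 10.62 log2 CPM in it and 9.76 to 10.08 in the other adjacent libraries. This is 1 library without a labelled position, and its bearing on the tumor values was not tested.

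**Figure D3:**
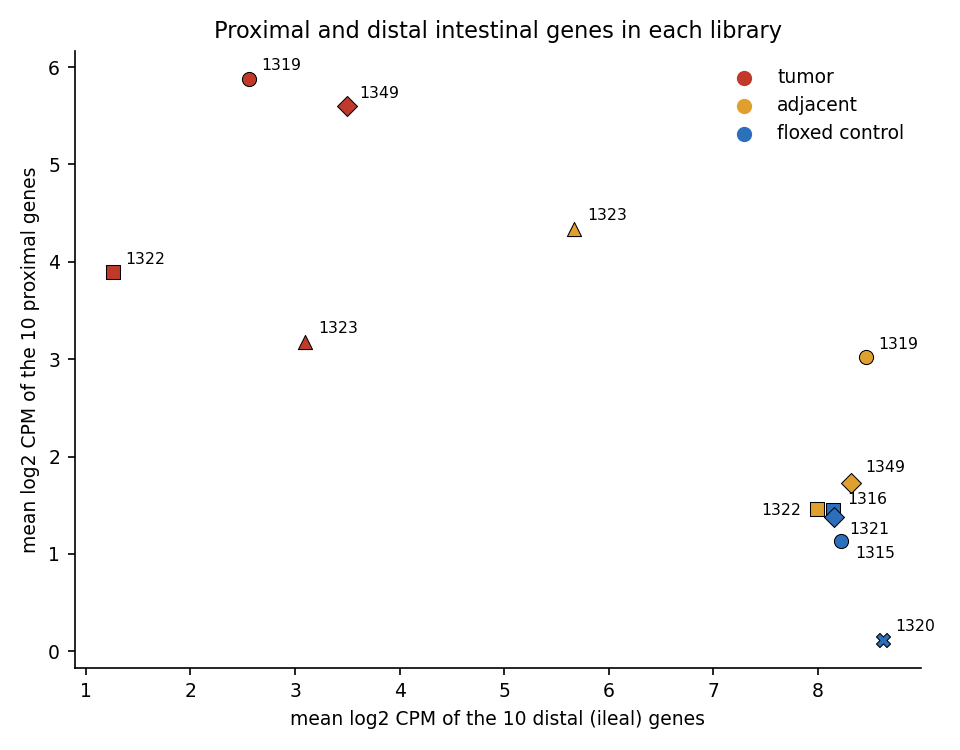
Mean log2 CPM of the 10 distal genes (horizontal) and the 10 proximal genes (vertical) in each of the 12 tissue libraries, coloured by group and labelled by mouse. The 4 tumors lie at 1.26 to 3.49 on the distal axis and the 4 controls at 8.15 to 8.62, with adjacent tissue of mouse 1323 between them at 5.67.

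Differentiated absorptive cells left a lower signal in tumors. Of 19 tested brush border genes, 14 fell and 1 rose, with a median of -2.96. Anpep, aminopeptidase N of the brush border, stood at 1277, 282, 262 and 1072 CPM in tumors, against 11580, 16350, 12130 and 12500 CPM in controls (log2 fold change -4.18 ± 0.53, adjusted p = 4.99e-05). Ezr, the linker of microvilli to their cortex, stood at 382 ± 131 CPM in tumors and 2142 ± 343 CPM in controls (log2 fold change -2.49 ± 0.29, adjusted p = 3.31e-05). Espn, which bundles microvillar actin, stood at 45.3 ± 14.3 CPM in tumors and 284.7 ± 59.7 CPM in controls (log2 fold change -2.65 ± 0.25, adjusted p = 9.63e-06). Vil1, another actin bundler of microvilli, stood at 418 ± 255.3 CPM in tumors and 3510 ± 568 CPM in controls (log2 fold change -3.07 ± 0.41, adjusted p = 7.06e-05). The member that rose was Lct, whose call did not hold when tumor 1319, tumor 1349 or any 1 control was left out. In these 4 genes no tumor reached a control.

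Carriers of absorbed nutrients followed. Of 16 transporters 10 fell and 2 rose: the amino acid carrier gene Slc7a9 stood at 27.3 ± 25 CPM in tumors and 550.0 ± 22.4 CPM in controls (log2 fold change -4.33 ± 0.73, adjusted p = 0.000413). Its partner Slc3a1 stood at 38.6 ± 37.1 CPM in tumors and 556 ± 94.7 CPM in controls (log2 fold change -3.85 ± 0.76, adjusted p = 0.00116). The glutamate carrier gene Slc1a1 stood at 13.7 ± 7.66 CPM in tumors and 278 ± 46.6 CPM in controls (log2 fold change -4.35 ± 0.55, adjusted p = 6.18e-05). Without tumor 1349 the log2 fold change of Slc3a1 was -4.51. Slc9a3 and Slc46a1 rose, by 2.08 and 1.38 on the log2 scale, and without tumor 1319, control 1315 or control 1316 only 1 of the 2 was called. The general epithelial marker Epcam stood at 1220, 1165, 1046 and 1756 CPM in tumors, against 3123, 3326, 3524 and 3271 CPM in controls (log2 fold change -1.35 ± 0.22, adjusted p = 0.000306), so that epithelium was present in every tumor.

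Lipid absorption genes split: 8 of 17 fell and 3 rose. Npc1l1, the cholesterol uptake channel, stood at 70.6 ± 62.4 CPM in tumors and 994 ± 278 CPM in controls (log2 fold change -3.81 ± 0.72, adjusted p = 0.00085). Slc27a4, a fatty acid transport protein, stood at 163 ± 109.7 CPM in tumors and 962 ± 239 CPM in controls (log2 fold change -2.56 ± 0.45, adjusted p = 0.000452). Mogat2, which rebuilds triglycerides, stood at 68.1 ± 51.2 CPM in tumors and 364 ± 57.5 CPM in controls (log2 fold change -2.41 ± 0.49, adjusted p = 0.00138). The members that rose were Apoa4, Fabp1 and the lipoprotein receptor gene Scarb1 (49.8 ± 4.66 CPM in tumors and 10.1 ± 4.01 CPM in controls, log2 fold change 2.51 ± 0.25, adjusted p = 1.26e-05). Fabp1, the fatty acid binding protein of the proximal gut and liver, stood at 893, 44.7, 52.8 and 1237 CPM in tumors, against 8.67, 10.8, 8.03 and 7.07 CPM in controls (log2 fold change 5.99 ± 1.56, adjusted p = 0.00635), with 2 tumors far above the others. Genes of cholesterol synthesis were lower in 10 of 19 cases and higher in 1 (0 without tumor 1349, control 1315 or control 1316), with Hmgcs1, at the start of the pathway, at 123 ± 61.9 CPM in tumors and 752 ± 122 CPM in controls (log2 fold change -2.61 ± 0.46, adjusted p = 0.000505). Stard4 stood at 98.5 ± 40.4 CPM in tumors and 486 ± 26.5 CPM in controls (log2 fold change -2.31 ± 0.26, adjusted p = 2.3e-05).

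Secretory lineages changed unevenly. Among Paneth cell genes 7 of 10 fell and 1 rose. The alpha-defensin gene Defa21 stood at 4.602, 4.52, 3.58 and 4.25 CPM in tumors, against 264, 164.6, 273 and 55.3 CPM in controls (log2 fold change -5.46 ± 0.73, adjusted p = 8.89e-05). Defa22 stood at 3.64, 4.78, 3.36 and 5.17 CPM in tumors, against 253, 164, 289 and 55.05 CPM in controls (log2 fold change -5.46 ± 0.76, adjusted p = 0.000113); defensin genes are near-identical copies that can share reads, so their separate levels are uncertain. Mmp7, the protease that activates these defensins and a Wnt target, went the other way, at 1818, 1304, 1040 and 2398 CPM in tumors, against 51.3, 38.1, 21.4 and 27.98 CPM in controls (log2 fold change 5.50 ± 0.47, adjusted p = 5.61e-06). Lyz1, the Paneth lysozyme, did not pass, at 467 ± 118 CPM in tumors and 1120 ± 533 CPM in controls (log2 fold change -1.26 ± 0.59, adjusted p = 0.0881). Goblet cell genes fell in 6 of 13 cases and rose in 3. Clca1, a secreted protease of goblet cell mucus, stood at 67.1, 5.72, 20.1 and 50.2 CPM in tumors, against 3905, 2987, 3128 and 4493 CPM in controls (log2 fold change -6.67 ± 0.85, adjusted p = 6.26e-05). Muc2, the main intestinal mucin, stood at 734 ± 476 CPM in tumors and 3279 ± 253 CPM in controls (log2 fold change -2.16 ± 0.60, adjusted p = 0.00929). Atoh1, the transcription factor gene that starts the secretory fate, stood at 3.79 ± 2.45 CPM in tumors and 28.3 ± 9.99 CPM in controls (log2 fold change -2.84 ± 0.59, adjusted p = 0.00163). Spdef, a later goblet factor, stood at 113 ± 44.9 CPM in tumors and 29.2 ± 7.604 CPM in controls (log2 fold change 2.02 ± 0.39, adjusted p = 0.00103). Retnlb, an antibacterial resistin-like protein, stood at 9.44 ± 9.95 CPM in tumors and 0.0679 ± 0.0988 CPM in controls (log2 fold change 6.82 ± 1.74, adjusted p = 0.00554). The groups overlapped for Retnlb, which passed the low-count filter only because of the tumors.

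Enteroendocrine and tuft cells are the remaining secretory lineages. Enteroendocrine genes fell in 8 of 18 cases and rose in 2, with the glucagon gene Gcg at 1.44 ± 1.57 CPM in tumors and 38.5 ± 11.9 CPM in controls (log2 fold change -4.73 ± 0.83, adjusted p = 0.000531). The neurotensin gene Nts stood at 4.59 ± 2.35 CPM in tumors and 70.7 ± 5.497 CPM in controls (log2 fold change -3.94 ± 0.47, adjusted p = 3.99e-05). The secretin gene Sct stood at 7.396 ± 4.79 CPM in tumors and 52.7 ± 8.24 CPM in controls (log2 fold change -2.83 ± 0.49, adjusted p = 0.000462). The 2 that rose were Chga and Gip, and that count was 0 to 5 when single libraries were left out (0 without tumor 1319, control 1316, 1320 or 1321, 1 without tumor 1349 or control 1315, 5 without tumor 1322 and 4 without tumor 1323). Without tumor 1319 the log2 fold change of Gcg was -5.73. Tuft cell genes fell in 6 of 13 cases (3 without control 1321) and rose in 1. Trpm5, a taste cation channel, fell (5.15 ± 1.45 CPM in tumors and 17.3 ± 6.32 CPM in controls, log2 fold change -1.85 ± 0.31, adjusted p = 0.000339). The member that rose was Avil, an actin regulator (83.2 ± 18.1 CPM in tumors and 14.3 ± 4.09 CPM in controls, log2 fold change 2.47 ± 0.25, adjusted p = 1.21e-05).

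**Figure D4:**
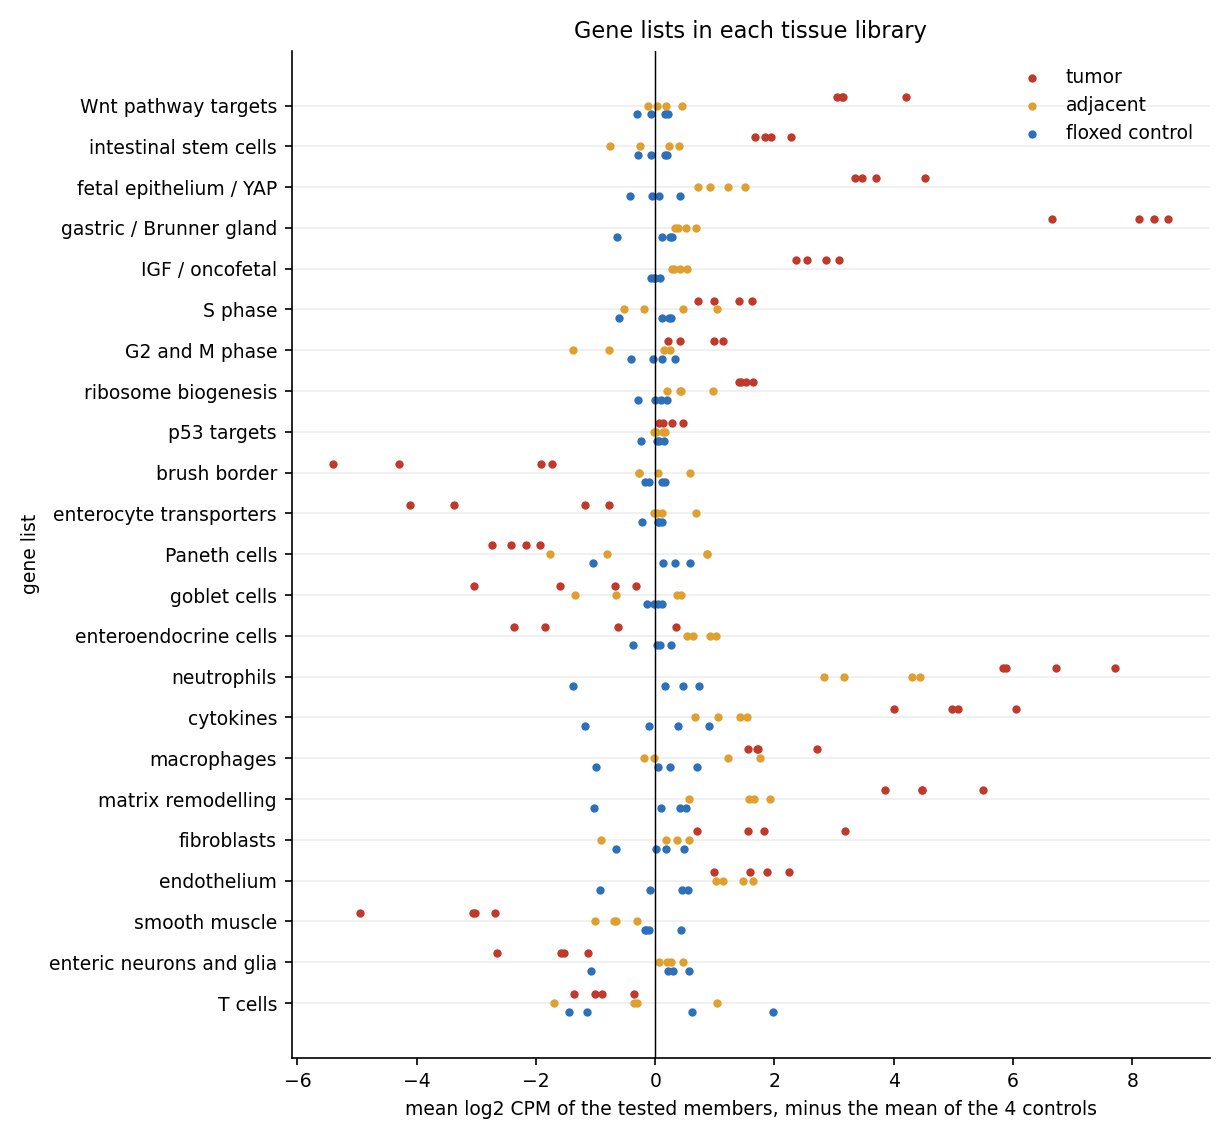
Mean log2 CPM of the tested members of 23 gene lists in each tumor, adjacent and control library, with the mean of the 4 controls set to 0; each point is 1 library. Gastric, neutrophil, cytokine and matrix remodelling genes lie to the right in every tumor, brush border and smooth muscle genes lie to the left, and p53 targets lie near 0.

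Cell cycle genes rose in part. Of 23 S phase genes, 16 were higher and 1 lower, with a median of 1.33. The replication helicase gene Mcm3 stood at 58.4, 95.5, 54.1 and 96.96 CPM in tumors, against 20.1, 22.2, 10.7 and 20.4 CPM in controls (log2 fold change 1.95 ± 0.39, adjusted p = 0.00126). Mcm2 stood at 67.4 ± 23.5 CPM in tumors and 19.1 ± 1.63 CPM in controls (log2 fold change 1.81 ± 0.37, adjusted p = 0.00147). Ung, which removes uracil from DNA, stood at 22.9 ± 5.28 CPM in tumors and 4.597 ± 3.07 CPM in controls (log2 fold change 2.01 ± 0.45, adjusted p = 0.00229). Of 26 genes of G2 and mitosis, 5 were higher and 0 lower, below the 28.6% of all genes, and the proliferation marker Mki67 stood at 103, 137, 88.8 and 141 CPM in tumors, against 99.95, 80.1, 80.3 and 88.8 CPM in controls (log2 fold change 0.42 ± 0.26, adjusted p = 0.185), with overlapping groups. Kif20a (log2 fold change 1.05 ± 0.33, adjusted p = 0.0179), Tpx2 (log2 fold change 1.06 ± 0.34, adjusted p = 0.0198), Plk1 (log2 fold change 1.01 ± 0.37, adjusted p = 0.034), Top2a (log2 fold change 0.91 ± 0.35, adjusted p = 0.0423) and Aurka (log2 fold change 0.98 ± 0.39, adjusted p = 0.0468) were the members called. The count of 5 was 0 without tumor 1349, 1 without tumor 1322 or control 1316, 2 without control 1315, 1320 or 1321, and 8 without tumor 1319.

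Genes that build ribosomes, which growing cells need, were nearly all higher. Ribosome biogenesis genes rose in 19 of 20 cases with 0 lower and a median of 1.49. Polr1a, the largest subunit of RNA polymerase I, stood at 44.8, 51.8, 50.5 and 42.6 CPM in tumors, against 14.3, 10.7, 10.7 and 16.1 CPM in controls (log2 fold change 1.82 ± 0.19, adjusted p = 1.67e-05). The nucleolar protein gene Nop56 stood at 89.9 ± 4.03 CPM in tumors and 25.6 ± 5.06 CPM in controls (log2 fold change 1.85 ± 0.19, adjusted p = 1.31e-05). Pes1, a ribosome assembly factor, stood at 98.9 ± 15.2 CPM in tumors and 36.2 ± 5.79 CPM in controls (log2 fold change 1.42 ± 0.17, adjusted p = 2.92e-05). The member that did not pass was Bop1 (log2 fold change 0.33 ± 0.22, adjusted p = 0.226).

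Genes that p53 activates moved in both directions. Of 34 tested targets 10 rose and 8 fell, against 28.6% and 26.1% of all genes, and their median was 0.02, where that of all genes was 0.07. Cdkn1a, which encodes the cell cycle inhibitor p21, stood at 90.3, 66.3, 143 and 168 CPM in tumors, against 406, 487, 508 and 399.6 CPM in controls (log2 fold change -1.94 ± 0.32, adjusted p = 0.000289), and no tumor reached a control. Sesn1, a stress-induced regulator of mTORC1, stood at 18.9 ± 7.88 CPM in tumors and 146 ± 17.5 CPM in controls (log2 fold change -2.96 ± 0.30, adjusted p = 1.24e-05). Ccng1, cyclin G1, stood at 41.2 ± 10.6 CPM in tumors and 98.2 ± 13.6 CPM in controls (log2 fold change -1.24 ± 0.19, adjusted p = 0.000202). Higher members were Ddit4, another mTORC1 regulator also induced by low oxygen, at 169.9 CPM in tumors, 126 CPM in adjacent tissue and 28.6 CPM in controls (tumor minus control log2 fold change 2.48 ± 0.30, adjusted p = 3.48e-05). Plk2 stood at 35.3 ± 10.2 CPM in tumors and 7.38 ± 1.87 CPM in controls (log2 fold change 2.17 ± 0.34, adjusted p = 0.000219). The nuclease gene Aen stood at 41.3 ± 4.99 CPM in tumors and 17.4 ± 8.06 CPM in controls (log2 fold change 1.45 ± 0.25, adjusted p = 0.000459). Mdm2, the ubiquitin ligase that p53 induces and that degrades it, did not pass at 44.8 ± 10.02 CPM in tumors and 59.5 ± 7.01 CPM in controls (log2 fold change -0.43 ± 0.23, adjusted p = 0.121).

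Other brakes on the cell cycle and genes of DNA repair also differed. Among other inhibitors of cyclin-dependent kinases, Cdkn2a, which encodes p16INK4A and ARF and is silent in normal gut, stood at 18.9, 72.1, 98.1 and 42.5 CPM in tumors, against 0.256, 1.07, 0 and 0.750 CPM in controls (log2 fold change 6.44 ± 0.73, adjusted p = 2.81e-05). It passed the low-count filter only because of the tumors, so this p is no independent support. Cdkn2b stood at 29.9 ± 13.2 CPM in tumors and 175.4 ± 29.2 CPM in controls (log2 fold change -2.54 ± 0.34, adjusted p = 7.06e-05). Cdkn1b stood at 50 ± 8.24 CPM in tumors and 76.7 ± 6.57 CPM in controls (log2 fold change -0.63 ± 0.14, adjusted p = 0.00222). DNA damage response genes rose in 11 of 20 cases with 0 lower, by less: Brca1 stood at 16.3 ± 2.74 CPM in tumors and 5.57 ± 2.16 CPM in controls (log2 fold change 1.39 ± 0.28, adjusted p = 0.00114). Fanca, of the crosslink repair complex, stood at 12.5 ± 1.36 CPM in tumors and 4.19 ± 1.21 CPM in controls (log2 fold change 1.46 ± 0.31, adjusted p = 0.00171). The damage sensor gene Trp53bp1 stood at 34.7 ± 8.69 CPM in tumors and 16.9 ± 3.27 CPM in controls (log2 fold change 1.11 ± 0.21, adjusted p = 0.000839). How far the higher S phase genes go with these was not tested.

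Insulin-like growth factors and oncofetal genes were higher in 11 of 12 tested cases, of which 1 (Igf2bp1) passed the low-count filter only because of the tumors. H19, an imprinted noncoding RNA of fetal tissue, stood at 1545, 2494, 992 and 1125 CPM in tumors, against 0.767, 0.859, 2.68 and 0.969 CPM in controls (log2 fold change 10.74 ± 0.69, adjusted p = 1.36e-06). Its imprinted neighbour Igf2, a growth factor, stood at 279, 635.4, 192 and 124 CPM in tumors, against 9.44, 8.37, 5.35 and 7.75 CPM in controls (log2 fold change 5.21 ± 0.50, adjusted p = 1.08e-05), highest in tumor 1322, without which the log2 fold change was 4.57. Igfbp4, which binds these growth factors, stood at 1074 ± 282 CPM in tumors and 66.1 ± 6.16 CPM in controls (log2 fold change 4.02 ± 0.27, adjusted p = 1.87e-06). Igf1 stood at 42.8 ± 10.5 CPM in tumors and 4.92 ± 2.18 CPM in controls (log2 fold change 3.38 ± 0.39, adjusted p = 2.99e-05).

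Genes of inflammation and its cells were among the strongest increases. All 13 tested neutrophil genes and 16 of 18 cytokine genes rose with 0 lower, and medians were 7.37 and 5.40; the neutrophil median was 7.605 with 3 genes of 3 or fewer control counts set at that floor. Of these, 2 neutrophil and 6 cytokine genes passed the low-count filter only because of the tumors, and their calls are a description. The calprotectin gene S100a9 stood at 224, 97.5, 818 and 158 CPM in tumors, 82.5, 51.4, 19.9 and 23.4 CPM in adjacent tissue and 0.435, 0.258, 0 and 0.156 CPM in controls (tumor minus control log2 fold change 10.11 ± 1.02, adjusted p = 1.42e-05), and adjacent tissue lay between tumors and controls. Its partner S100a8 stood at 218 CPM in tumors, 30.3 CPM in adjacent tissue and 0.169 CPM in controls. Cd177, a neutrophil surface protein that also occurs in epithelium, stood at 2411, 1848, 633 and 1062 CPM in tumors, against 2.46, 5.195, 2.68 and 15.8 CPM in controls (log2 fold change 7.64 ± 0.85, adjusted p = 2.48e-05). Ltf, the iron-binding lactoferrin of neutrophil granules, stood at 586.7, 832.2, 105.2 and 116.9 CPM in tumors, against 0.409, 2.061, 0 and 1.157 CPM in controls (log2 fold change 8.47 ± 0.97, adjusted p = 3.29e-05). Tumor 1323 was lowest for Ltf and Cd177 and highest for S100a9, so these genes did not share an order among tumors. Il11, a cytokine of the interleukin 6 family, stood at 77.7, 23.1, 25.8 and 74.8 CPM in tumors, against 0.460, 0.515, 0 and 0.438 CPM in controls (log2 fold change 6.75 ± 0.56, adjusted p = 4.9e-06). Il1a stood at 33.7 ± 23.6 CPM in tumors and 0.385 ± 0.270 CPM in controls (log2 fold change 6.04 ± 0.68, adjusted p = 2.54e-05). The neutrophil attractant gene Cxcl3 stood at 48.9 ± 57.8 CPM in tumors and 0.0357 ± 0.0361 CPM in controls, with 6751 counts over the 4 tumors and 4 over the 4 controls. Il6 had 4613 and 7 counts. Tumor 1323 set part of these sizes, since without it the log2 fold changes were 9.09 for S100a9, 8.92 for S100a8 and 8.71 for Cxcl3. Without tumor 1322 that of Ltf was 7.87, without control 1316 it was 9.06, and without control 1321 that of Cd177 was 8.63.

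Macrophage genes rose in 10 of 16 cases with 0 lower and a median of 1.83. Cd14, the endotoxin coreceptor, stood at 85.8, 77.3, 304 and 74.7 CPM in tumors, against 8.75, 12.7, 8.03 and 9.72 CPM in controls (log2 fold change 3.73 ± 0.50, adjusted p = 8.96e-05). Cd68 stood at 55.99 ± 28.4 CPM in tumors and 6.91 ± 2.13 CPM in controls (log2 fold change 2.94 ± 0.57, adjusted p = 0.000988). Fcgr3, an antibody receptor gene, stood at 69.4 ± 46.99 CPM in tumors and 9.61 ± 2.38 CPM in controls (log2 fold change 2.89 ± 0.56, adjusted p = 0.000955). The complement gene C1qb stood at 153 ± 65.9 CPM in tumors and 40.01 ± 12.7 CPM in controls (log2 fold change 1.93 ± 0.42, adjusted p = 0.00231). Adgre1, the F4/80 antigen, did not pass (log2 fold change 0.90 ± 0.55, adjusted p = 0.184). Without tumor 1323 the log2 fold changes were 2.96 for Cd14 and 2.30 for Fcgr3.

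Genes of lymphocytes showed no such increase. T cell genes did not rise: 0 of 15 were higher and 6 were lower (11 without control 1315 and 3 without control 1316). Cd4 stood at 2.33, 1.92, 1.69 and 1.94 CPM in tumors, against 7.95, 20.9, 5.35 and 10.9 CPM in controls (log2 fold change -2.63 ± 0.59, adjusted p = 0.00245). Cd3e stood at 1.92, 1.12, 0.792 and 0.748 CPM in tumors, against 1.28, 14.7, 18.7 and 5.44 CPM in controls (log2 fold change -2.90 ± 0.74, adjusted p = 0.00549), the highest control being 1316 for Cd4 and 1320 for Cd3e. The groups overlapped for Cd3e, whose log2 fold change was -2.31 without control 1316 and whose call was lost with limma-voom quality weights (adjusted p = 0.185), with the replicate block (0.0535) and with limma-voom alone (0.0544). Of 15 B cell and plasma cell genes 0 were higher and 0 lower with edgeR over the 12 libraries, where 1, Tnfrsf17 (0.263 ± 0.346 CPM in tumors and 0.825 ± 0.641 CPM in controls), was under 0.05 before adjustment, and 0 passed with DESeq2. Other settings called some lower: 1 with limma-voom, 3 with only the 8 libraries in the edgeR fit (Fcrla, Ms4a1 and Cr2) and 2 without tumor 1319, where the log2 fold change of Tnfrsf17 was -3.41. Mast cell genes rose in 6 of 8 cases and fell in 1, but 6 of the 8 passed the low-count filter only because of the tumors, with Tpsb2, a mast cell tryptase, at 6.87 ± 2.19 CPM in tumors and 0.454 ± 0.341 CPM in controls (log2 fold change 3.54 ± 0.60, adjusted p = 0.000364). Class II antigen presentation genes fell in 6 of 7 cases, with Ciita, their master regulator, at 5.59, 5.28, 4.21 and 2.58 CPM in tumors, against 7.39, 80.9, 16.1 and 70.7 CPM in controls (log2 fold change -3.39 ± 0.80, adjusted p = 0.0036). With limma-voom quality weights 1 of the 7 was called lower, and the call of Ciita was among those lost (adjusted p = 0.127). Control 1316 was the highest control for it and for the summed T cell list, and class II genes were summed at 994 to 1910 CPM in tumors and 1047 to 11200 CPM in controls.

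Genes of the interferon response did not rise together. Of 34, 10 were lower (29.4%, near the 26.1% of all genes) and 1 higher (2.94%, against 28.6%), with a median of -0.22. Adjacent tissue minus control had a lower median of -1.09, and 4 of the 34 were called lower there, against 0.277% of all genes. Lower calls were thus not particular to the tumors, but the adjacent calls come from a comparison whose count was fragile, as given below. The mean of the list was 3.68 to 4.765 log2 CPM in tumors, 2.55 to 4.17 in adjacent tissue and 3.72 to 5.48 in controls. The groups overlapped, so no lower level of the list as a whole was shown in either tissue. Ifih1, the MDA5 sensor of double-stranded RNA, stood at 17.99, 12.7, 20.6 and 23.6 CPM in tumors, against 108, 132, 88.3 and 138 CPM in controls (log2 fold change -2.66 ± 0.21, adjusted p = 4.19e-06). Cmpk2 stood at 12.9 ± 2.04 CPM in tumors and 96.3 ± 8.72 CPM in controls (log2 fold change -2.90 ± 0.26, adjusted p = 6.72e-06). Irf7, the regulator that amplifies interferon production, stood at 52.1 ± 11.3 CPM in tumors and 251 ± 72.2 CPM in controls (log2 fold change -2.26 ± 0.30, adjusted p = 6.62e-05). Isg15 (log2 fold change 0.06 ± 0.56, adjusted p = 0.935), Ifit3 (log2 fold change -0.21 ± 0.50, adjusted p = 0.735) and Mx1 (log2 fold change -0.23 ± 0.47, adjusted p = 0.697) did not pass. Bst2 was the member that rose (log2 fold change 2.17 ± 0.50, adjusted p = 0.00292), and 3 rose without control 1316. Of 14 antimicrobial genes 4 were higher and 4 lower (2 lower without control 1316), near the 28.6% and 26.1% of all genes. Reg3b, a C-type lectin of enterocytes, stood at 1152 ± 934.7 CPM in tumors and 10210 ± 5349 CPM in controls (log2 fold change -3.15 ± 0.70, adjusted p = 0.00228). Fut2, which adds fucose to surface sugars, stood at 47.9 ± 17.8 CPM in tumors and 6.42 ± 2.31 CPM in controls (log2 fold change 2.85 ± 0.68, adjusted p = 0.00366).

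The stroma of the pieces differed as well. All 16 tested genes of matrix remodelling rose, with a median of 4.37. Mmp14, a membrane-bound collagenase, stood at 290.1, 436, 487 and 349.6 CPM in tumors, against 29.1, 37.4, 13.4 and 33.5 CPM in controls (log2 fold change 3.68 ± 0.25, adjusted p = 1.86e-06). Mmp13, another collagenase, stood at 134.8 ± 10.7 CPM in tumors and 6.43 ± 1.24 CPM in controls (log2 fold change 4.33 ± 0.45, adjusted p = 1.62e-05). Mmp10, a stromelysin, stood at 171 ± 28.7 CPM in tumors and 24.5 ± 5.31 CPM in controls (log2 fold change 2.88 ± 0.32, adjusted p = 2.3e-05). All tumors were above all controls in these 3 genes.

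Genes of fibroblasts, which lay down matrix, and of vessels were also higher. Fibroblast genes rose in 12 of 18 cases and fell in 1, with a median of 2.20. The collagen gene Col1a1 stood at 799.9, 459.5, 3315 and 1027 CPM in tumors, against 74.3, 89.5, 50.9 and 64.5 CPM in controls (log2 fold change 4.30 ± 0.75, adjusted p = 0.00049). Sparc, a collagen-binding protein, stood at 1114 ± 995.2 CPM in tumors and 123 ± 15.9 CPM in controls (log2 fold change 3.17 ± 0.55, adjusted p = 0.000472). Fn1, fibronectin, stood at 1101 ± 798 CPM in tumors and 154 ± 55.2 CPM in controls (log2 fold change 2.83 ± 0.45, adjusted p = 0.000244). The proteoglycan gene Lum stood at 139 ± 86.1 CPM in tumors and 21.2 ± 3.38 CPM in controls (log2 fold change 2.68 ± 0.44, adjusted p = 0.00032). Tumor 1323 was the highest, and without it the log2 fold changes were 3.42 for Col1a1, 2.34 for Sparc and 2.19 for Fn1. Endothelial genes rose in 10 of 12 cases with 0 lower and a median of 1.80: Esam, an adhesion molecule of vessels, stood at 33.02 CPM in tumors, 18.02 CPM in adjacent tissue and 7.17 CPM in controls (tumor minus control log2 fold change 2.01 ± 0.21, adjusted p = 1.6e-05). Flt1, a receptor for vascular endothelial growth factor, stood at 43.9 CPM in tumors, 33.7 CPM in adjacent tissue and 10.5 CPM in controls (tumor minus control log2 fold change 2.08 ± 0.30, adjusted p = 0.00013). Vwf, von Willebrand factor, stood at 64.5 CPM in tumors, 57.99 CPM in adjacent tissue and 11.5 CPM in controls (tumor minus control log2 fold change 2.26 ± 0.37, adjusted p = 0.000338).

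Smooth muscle went the other way: 14 of 14 genes were lower, with a median of -3.20. Acta2, smooth muscle actin, stood at 189, 206, 233 and 162 CPM in tumors, against 1012, 1414, 1049 and 1006 CPM in controls (log2 fold change -2.50 ± 0.23, adjusted p = 7.88e-06). Mylk, the myosin light chain kinase, stood at 77.8 ± 38.6 CPM in tumors and 1220 ± 192 CPM in controls (log2 fold change -3.97 ± 0.38, adjusted p = 9.9e-06). Myl9 stood at 92.9 ± 5.89 CPM in tumors and 566 ± 149.7 CPM in controls (log2 fold change -2.61 ± 0.24, adjusted p = 8.58e-06). No tumor reached a control in these 3 genes.

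Genes of the enteric nervous system, which lies in part between the muscle layers, were lower too. Genes of enteric neurons and glia fell in 10 of 15 cases and rose in 1 (0 without tumor 1322, tumor 1323 or control 1315, 1320 or 1321), with a median of -1.996: Elavl4, an RNA-binding protein of neurons, stood at 0.394 ± 0.171 CPM in tumors and 5.49 ± 2.04 CPM in controls (log2 fold change -3.91 ± 0.39, adjusted p = 1.09e-05). Nos1, neuronal nitric oxide synthase, stood at 1.22 ± 0.534 CPM in tumors and 10.4 ± 3.29 CPM in controls (log2 fold change -3.13 ± 0.39, adjusted p = 4.25e-05). The summed smooth muscle level was 466 to 1195 CPM in tumors and 6883 to 10590 CPM in controls, and the share of this in other decreases was not tested.

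Pancreas markers were checked as those of another organ. Of 11, 4 were tested and called higher, but 2 of them, Try5 and Ctrb1, passed the low-count filter only because of the tumors, and the call of Ctrb1 was lost with DESeq2 (adjusted p = 0.0556) and without control 1315 (0.0696) or 1321 (0.0679). The 4 summed to 58.8 to 298 CPM in tumors and 10.7 to 23.8 CPM in controls. Cela1 stood at 168 ± 86.05 CPM in tumors and 4.21 ± 2.82 CPM in controls. Try5 had 103 counts over the 4 tumors and 0 over the 4 controls, and Ctrb1 had 65 and 4. The 7 members not tested had 2 to 12 counts over the tumors and 0 to 23 over the controls, among them Pnlip with 2 and 0, Cela2a with 12 and 1, and Cpb1 with 3 and 23. The part of pancreas tissue in other results was not tested.

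Energy metabolism genes were shifted in part. Glycolysis and hypoxia genes rose in 10 of 18 cases and fell in 1 (2 without control 1321), with a median of 0.82. Slc16a3, which exports lactate, stood at 163, 249.1, 134.9 and 154 CPM in tumors, 66.3, 116, 89.3 and 131 CPM in adjacent tissue and 12.2, 31.9, 24.1 and 14.6 CPM in controls (tumor minus control log2 fold change 3.13 ± 0.35, adjusted p = 2.41e-05). Slc2a1, the glucose transporter GLUT1, stood at 138 ± 40.9 CPM in tumors and 18.6 ± 6.002 CPM in controls (log2 fold change 2.78 ± 0.39, adjusted p = 0.000104). Pkm, pyruvate kinase, stood at 1263 ± 158 CPM in tumors and 393 ± 81.3 CPM in controls (log2 fold change 1.68 ± 0.22, adjusted p = 7.25e-05). Bnip3, a hypoxia-induced mitophagy receptor, stood at 104 CPM in tumors, 75.8 CPM in adjacent tissue and 20.4 CPM in controls (tumor minus control log2 fold change 2.36 ± 0.28, adjusted p = 3.8e-05). Nuclear genes of the respiratory chain fell in 10 of 24 cases and rose in 1 (2 without tumor 1323), with a median of -0.31, led by Sdha of complex II at 179.8 ± 54.8 CPM in tumors and 528 ± 16.3 CPM in controls (log2 fold change -1.55 ± 0.21, adjusted p = 8.89e-05). Cycs, cytochrome c, stood at 46.4 ± 16.4 CPM in tumors and 130.4 ± 33.96 CPM in controls (log2 fold change -1.49 ± 0.28, adjusted p = 0.000706). Genes of the mitochondrial genome fell in 7 of 12 cases, with mt-Nd5 at 700.0 ± 219.6 CPM in tumors and 2346 ± 574 CPM in controls (log2 fold change -1.75 ± 0.32, adjusted p = 0.000571). mt-Co1 stood at 3152 ± 1127 CPM in tumors and 8444 ± 829.5 CPM in controls (log2 fold change -1.42 ± 0.33, adjusted p = 0.0032).

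The 4 tumors were not alike. Among called protein-coding genes whose mean log2 CPM reached 3, the widest spread among tumors was that of the enterocyte genes Slc6a19, Sult1d1 and Enpep and of the antimicrobial lectin gene Reg3a. Slc6a19, the neutral amino acid transporter of the brush border, stood at 254, 3.11, 46.2 and 263 CPM in tumors, against 1209, 1338, 1434 and 971.1 CPM in controls. Sult1d1, a sulfotransferase, stood at 103, 1.05, 21.1 and 72.2 CPM in tumors, against 462, 337, 351 and 343 CPM in controls. Enpep, aminopeptidase A, stood at 253, 4.45, 29.7 and 286 CPM in tumors, against 2810, 2896, 1855 and 2495 CPM in controls. In all 3, tumors 1319 and 1349 were high, tumor 1323 was lower and tumor 1322 was lowest. Reg3a stood at 39.6, 1.05, 2.24 and 54.02 CPM in tumors, against 233, 85.8, 144 and 127 CPM in controls. Log2 fold changes were -3.57 for Sult1d1 without tumor 1319 and -3.37 for Reg3a without tumor 1349. The call of Reg3a was lost without control 1315 (adjusted p = 0.077), with only the 8 libraries in the fit (0.0689) and without the low-count filter (0.111), which also ended those of Slc6a19 (0.0557) and Sult1d1 (0.0694).

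Lists differed in their order among tumors. The mean of brush border genes was 8.12, 4.63, 5.73 and 8.30 log2 CPM in tumors 1319, 1322, 1323 and 1349, against 9.87 to 10.20 in controls. For the Wnt list it was 6.17, 7.24, 6.08 and 6.19 in those tumors, against 2.72 to 3.24 in controls, so that the tumor with the least brush border signal had the most Wnt signal. That order rests on 4 tumors and is given with no test. Fibroblast genes averaged 6.80, 5.95, 8.44 and 7.07 log2 CPM in the tumors in the same order, macrophage genes 5.08, 5.22, 6.22 and 5.24, and the gastric list 5.88, 5.65, 3.94 and 5.39. Tumor 1323 was thus highest in fibroblast and macrophage genes and lowest in gastric genes. Tumor 1322 had the lowest smooth muscle mean, 3.16 log2 CPM against 5.05 to 5.42 in the other tumors.

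**Figure D5:**
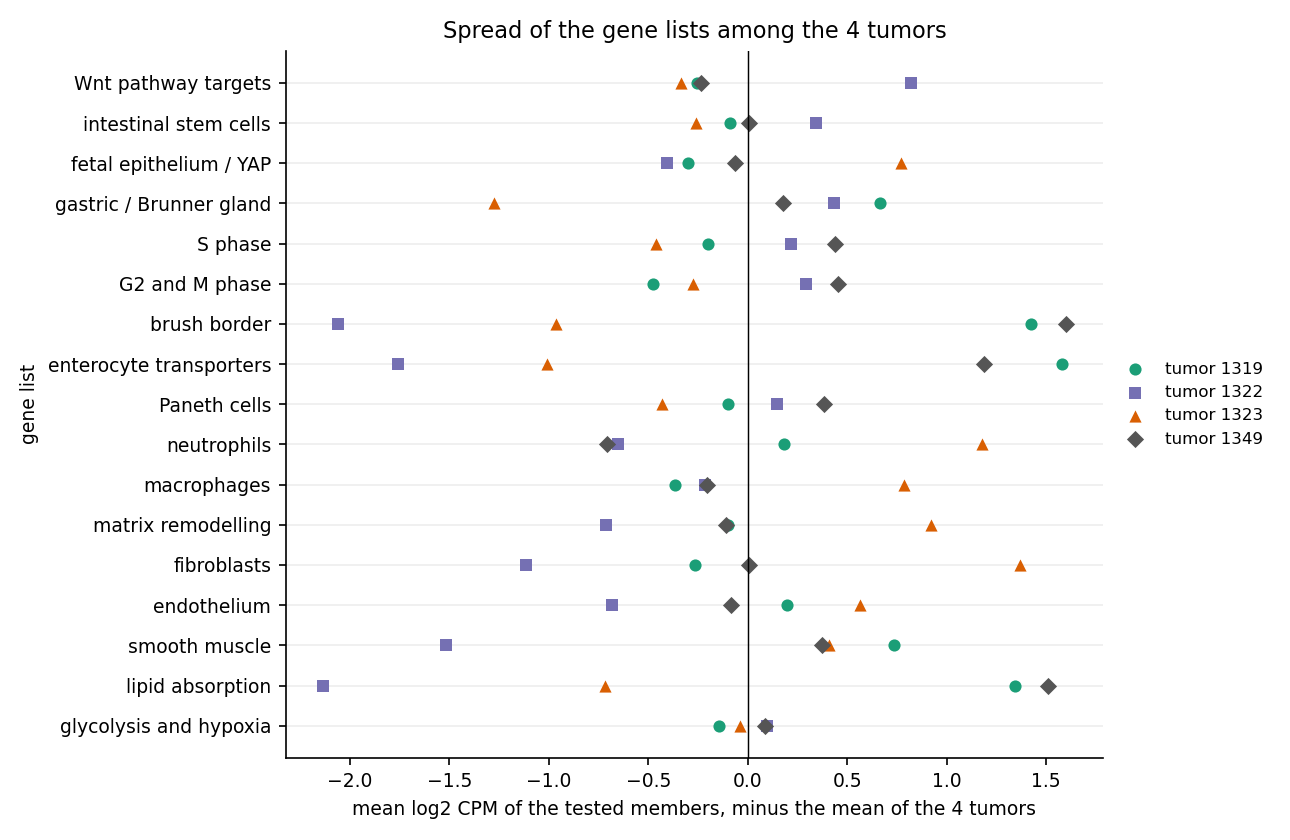
Mean log2 CPM of the tested members of 17 gene lists in each of the 4 tumors, with the mean of the 4 tumors set to 0. Brush border, transporter and lipid genes spread most, with tumor 1322 lowest and tumors 1319 and 1349 highest, while tumor 1323 is highest for fibroblasts, macrophages and neutrophils.

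Adjacent tissue of the tumor mice was also compared with the controls. It shares the 4 controls with the tumor comparison, so values are only set side by side. Adjacent tissue and tumors also differed in the regional genes above and in summed smooth muscle genes (4189 to 6442 CPM against 466 to 1195 CPM). At the same threshold 189 of 17666 genes (1.07%) differed between adjacent and control tissue, 140 higher (0.792%) and 49 lower (0.277%). This count was fragile: it was 0 without control 1321, 2 without control 1316, 32 without control 1315 and 53 without control 1320, and it was 370 without tumor 1322, 307 without tumor 1323 and 114 without tumor 1349, although no tumor enters the comparison itself. At an adjusted p under 0.05 in adjacent tissue, Wnt genes were higher in 0 and lower in 0 of 24 cases (median 0.15), and none of the 15 gastric genes was called. Of neutrophil genes 5 of 13 were higher (median 3.047), of endothelial genes 4 of 12, and of glycolysis and hypoxia genes 4 of 18. Fetal and YAP genes were higher in 3 of 17 cases, matrix remodelling genes in 3 of 16 and retinoid genes in 3 of 13. In these lists 0 genes were lower. Fetal and YAP means were 3.816 to 4.598 log2 CPM in adjacent tissue and 2.665 to 3.518 in controls. Matrix remodelling means were 2.660 to 4.012 and 1.066 to 2.609. Lgr5 stood at 106 CPM in tumors, 9.61 CPM in adjacent tissue and 7.87 CPM in controls and Notum at 456 CPM in tumors, 0.414 CPM in adjacent tissue and 0.487 CPM in controls. Adjacent tissue was nearer to tumors for the deleted genes, with Rnaseh2b at 4.39 CPM in tumors, 4.12 CPM in adjacent tissue and 16.1 CPM in controls and Trp53 at 19.8 CPM in tumors, 21.3 CPM in adjacent tissue and 44.8 CPM in controls. For some inflammation and hypoxia genes the mean of adjacent tissue lay between, as for S100a9, Lcn2 (1375 CPM in tumors, 59.4 CPM in adjacent tissue and 2.55 CPM in controls), Ddit4 and Slc16a3 above.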

How the data were processed

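The counts deposited by the authors are whole reads per Ensembl gene from HTSeq, per the submitters' processing notes, which also name cutadapt 1.5 and 1.9, Trimmomatic 0.36, TopHat2 2.0.14 and GRCm38; the HTSeq version and annotation release are not given in the sources used here. Per the labels' protocols, libraries were made with a strand-specific TruSeq mRNA kit from total RNA.

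From these counts, genes were kept by filterByExpr and scaled by TMM in edgeR 4.0.16 (R 4.3.3). All 12 tissue libraries entered 1 quasi-likelihood fit with a coefficient per group, so that they share 1 estimate of spread, and p-values were adjusted by Benjamini-Hochberg at 0.05. SEs are the absolute log2 fold change divided by the square root of F. Log2 CPM values used a prior count of 2. Alternatives included DESeq2 1.42.0 and limma 3.58.1, and the fits were tested on simulated data. Symbols came from GENCODE, which matched 49326 of 49585 identifiers; the unmatched held 0.0479% of counts.

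The members and the 54 gene lists were chosen with earlier results of these data known. Named genes were Rnaseh2b and Trp53, the 12 largest increases and 12 largest decreases among called protein-coding genes whose mean log2 CPM reached 3 and whose groups did not overlap, the 4 such genes with the widest spread among tumors whatever their overlap, and for every list the 4 members of lowest p (6 in the Wnt, p53 and gastric lists), leaving out gene models without a standard symbol; other members named were chosen after their values were seen. Mouse numbers link tumor and adjacent tissue only; no tumor and control share a mouse. P-values rest on the spread within groups over all 12 tissue libraries. Tumor and adjacent tissue of the same mouse count there as separate units, except with the replicate block. Some members of the lists are counted but not reported here by name.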

Additional observations from a re-analysis of the deposited data

Results flagged for a closer look

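In 12 of 168 groups of 4 libraries examined, 1 library stood apart from its group by Dixon's 95% criterion; chance gives about 1 in 20. All values are log2 CPM. Among tumors, the mean of the Wnt list was 7.24 in tumor 1322, against 6.08 to 6.19 in the other tumors, and its smooth muscle mean was 3.16, against 5.05 to 5.42. Gkn3 was 4.78 in tumor 1323, against 8.83 to 9.61 in the others, and the macrophage mean was 6.22, against 5.08 to 5.24.

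Among controls, the shallow control 1320 stood apart most often. Rnaseh2b was 4.59 in it, against 3.69 to 3.83 in the other controls, and Notum, with a count of 0 there, was -3.72, against -0.65 to -0.24. Its list means were 3.60 for RNase H genes (4.55 to 4.74 in the others), 3.13 for BMP and TGF-beta genes (4.03 to 4.11), 2.98 for mesenchymal transition genes (4.38 to 4.61) and 8.62 for the distal list (8.15 to 8.22). Sult1d1 was 8.85 in control 1315, against 8.40 to 8.45, and the smooth muscle mean was 8.54 in control 1316, against 7.93 to 7.997.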

How the results depend on the processing

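The number of genes called between tumors and controls stayed within 1.5 times its value in all 20 alternatives. With mouse as a replicate block, 4825 genes were higher and 4930 lower. When single libraries were left out, 4272 to 4962 were higher and 4124 to 4587 lower. Of 230 named genes, 207 kept direction and side of the threshold in every setting, 23 changed side and 0 changed direction. The adjacent comparison was unstable, and the cause was not tested: its 189 calls, 140 higher and 49 lower, became 929, 655 and 274 with DESeq2, and 1628, 817 and 811 with limma-voom quality weights. With the replicate block 76 were called, 43 of them higher, and with limma-voom without it (chosen after seeing the data, as were the sex term and the joint omission) 82 and 46. Without both tumor 1322 and control 1320 it was 116 and 80. Leaving out single libraries gave 0 to 370 calls, 0 to 244 higher and 0 to 126 lower. The 5 genes of G2 and mitosis called higher became 8 with DESeq2 size factors, upper-quartile factors or quality weights, 9 with DESeq2 or only the 8 libraries, 2 with sex as a covariate, 0 without both libraries, and 0 to 8 when single libraries were left out. The 6 T cell genes called lower became 1 with quality weights and 3 to 11 when single libraries were left out. Depth limits control 1320 most.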

Other observations

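Several other gene groups moved in both directions between tumors and controls. Of 11 Notch pathway genes 6 were higher and 4 lower: the receptors Notch1, Notch2 and Notch3 and the ligands Jag1 and Jag2 rose, while the ligands Dll1 and Dll4 fell. Of 19 BMP and TGF-beta genes 6 rose and 7 fell (31.6% and 36.8%, against 28.6% and 26.1% of all genes). The risen Inhba, and in the groups below Crabp2 and Pdcd1, passed the low-count filter only because of the tumors. Claudins and keratins exchanged members: Cldn4, a tight junction protein, stood at 546 ± 131 CPM in tumors and 171 ± 30.2 CPM in controls (log2 fold change 1.68 ± 0.30, adjusted p = 0.000577), and Krt20, a keratin of differentiated cells, at 517 ± 369.6 CPM in tumors and 3046 ± 555.1 CPM in controls (log2 fold change -2.56 ± 0.59, adjusted p = 0.003).

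Retinoid genes rose in 6 of 13 cases and fell in 3. Crabp2, a retinoic acid carrier, had 329 counts over the 4 tumors and 2 over the 4 controls, a ratio of 164.3 (95% interval 45.12 to 1362, counting error only). Among metallothioneins and zinc transporters, Mt1, Mt2 and Mt3 rose and Slc30a1 and Slc39a4 fell. Of 9 checkpoint genes Pdcd1 and Arg1 rose and Ido1 fell (22.2% and 11.1%, below the 28.6% and 26.1% of all genes). In this list 1 rose without control 1315 or 1321, and 2 fell without control 1315.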
